A study of Mus musculus with 59 samples.

Results

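Livers of mice that drank water with 10 ppb arsenic as sodium arsenite were compared with livers of unexposed mice on the same purified diet. The comparison takes 10 of the 59 arrays of the series, 5 labelled as the 10 ppb drinking water exposure and 5 labelled as the control of that diet, and covers 45037 probe sets. All 10 came from male C57BL/6 mice that were 6 weeks old, had 2 weeks to get used to AIN-76A, a diet made from purified ingredients, and were kept for 5 weeks with or without arsenite in the water. Neither group was injected, and neither had arsenite added to its food. Total liver RNA was measured on 1-colour Affymetrix arrays, 1 array per sample, and the samples of a group are labelled as biological replicates. The letters A, C, D, E and F name the exposed arrays and B, C, D, E and F the control arrays. Values are log2 expression values per probe set, and a difference is the mean of the 10 ppb group minus the mean of the control group. Its standard error (SE) uses 1 spread per probe set from the 39 arrays of the 8 groups kept for 5 weeks. Those groups were the control, 10 ppb water, 100 ppb water and 10 ppb food groups on AIN-76A and the same on LRD-5001, a standard chow. Each p rests on that shared spread between samples of a group, not on the 10 arrays alone, and 5 arrays a group limit the precision.

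Inorganic arsenic enters liver cells as arsenite through aquaglyceroporins, binds thiol groups of proteins, and is methylated by As3mt with S-adenosylmethionine as the methyl donor. At toxic doses it is known for inducing metallothioneins, heme oxygenase, heat shock proteins and glutathione genes. The liver also secretes most plasma proteins, so its hepatocytes hold a large endoplasmic reticulum (ER). When unfolded proteins build up there, the sensors Ern1, Atf6 and Eif2ak3 raise the chaperones, disulfide isomerases and degradation factors of the ER, which is the unfolded protein response.

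The arrays were alike, with correlations across probe sets from 0.9577 up to 0.9929, and the closest pair still differed with an SD of 0.25, so no array was a copy of another. Replicate C of both groups lay apart from the other 8 arrays, with an upper quartile of 3.73 in the 10 ppb group and 3.75 in the control group against 4.01 to 4.22 in the others. In each of the 12 groups, the array lowest on the main axis of variation within groups is called the one that lies apart. This rule picks 1 array in every group whether or not it stands out, and the labels name no batch. Among the 5373 genes with a mean of at least 5, the median SD between arrays was 0.289 in the 10 ppb group and 0.318 in the controls, and without replicate C it was 0.197 and 0.191. The 8 hepatocyte markers, among them albumin and apolipoprotein genes, averaged between 12.36 and 12.56 on all 10 arrays, as the label of liver requires. In these bulk samples, fewer cells of a type and less RNA per cell cannot be told apart.

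Liver gene expression at 10 ppb lay close to that of the controls. With limma and Benjamini-Hochberg adjustment over all probe sets, 0 of 45037 probe sets (0%) passed an adjusted p of 0.05, and the smallest adjusted p was 0.993. At an unadjusted p under 0.05 there were 2178 probe sets, which is 4.84% of those tested, 1181 higher and 997 lower. Counted as genes, each taken by its brightest probe set, 475 of 18193 (2.61%) were higher and 406 (2.23%) lower at that p. The groups did not overlap for 131 probe sets (0.291%) that were higher and 98 (0.218%) that were lower. For 97.1% of probe sets the 95% confidence interval of the difference lay within 2-fold in either direction. For genes with a mean of at least 5 the same held for 4954 of 5373 (92.2%), where the interval reached a median of 0.377 to either side. A difference past 2-fold was seen for 21 of 18193 genes. The direction of the difference was split almost evenly, with 51.2% of all genes higher and a median difference of 0.005. The following paragraphs describe genes and gene groups by their values, and no gene named there passed the adjusted threshold between 10 ppb and control.

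**Figure D1:**
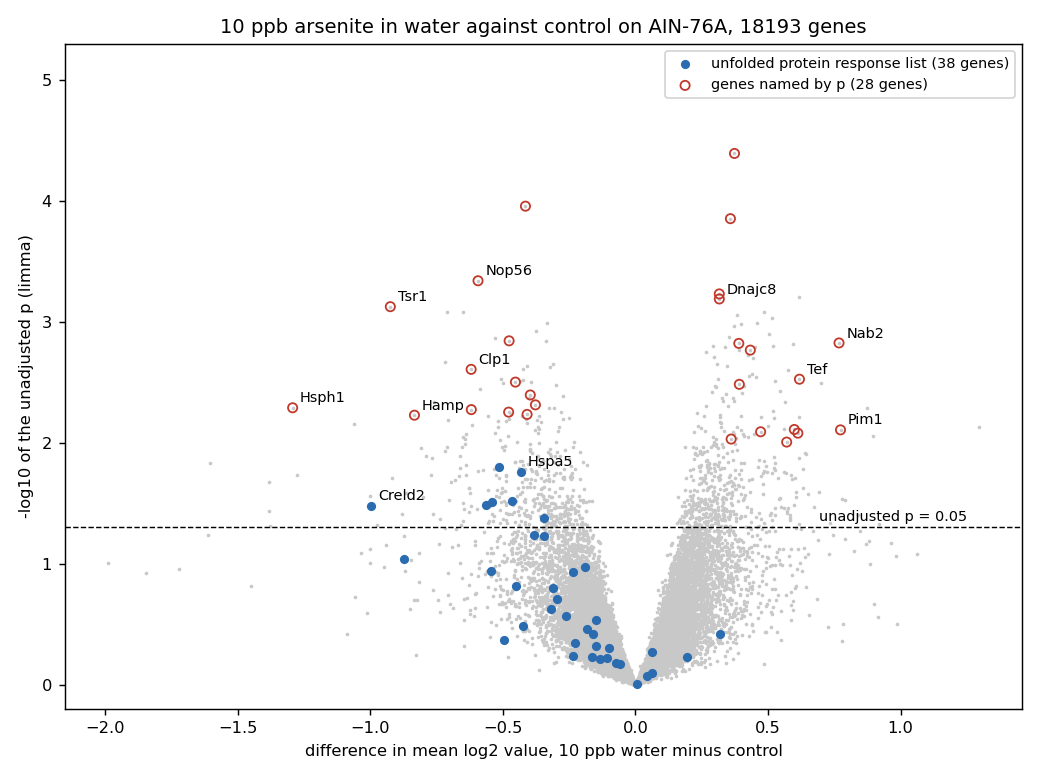
Difference between the 10 ppb group and the controls (horizontal axis, log2) against the negative log10 of the unadjusted p from limma (vertical axis) for 18193 genes, with the 38 measured unfolded protein response genes as filled points and the 28 genes named by their p as open circles. The unfolded protein response genes lie mostly left of 0, 7 of them above the dashed line at an unadjusted p of 0.05, and no gene passed after adjustment.

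The genes of the unfolded protein response stood lower in the 10 ppb group, led by the ER chaperones. The following elements are shown because 10 of these genes carry, near their start, the ER stress response element through which Atf6 and Xbp1 act. The element was searched as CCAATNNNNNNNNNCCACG on both strands in the RefSeq promoters of GRCm38.p6, from 250 bases before to 50 bases after each start, and capitals mark its fixed letters. It was found in 39 of 32851 promoters (0.119%) and in 10 of the 33 measured unfolded protein response genes that have a promoter in that table (30.3%). In these 10 genes the matches lie between 212 and 26 bases before the start, for Hspa5 at chr2:34772025-34772043, for Hsp90b1 at chr10:86705638-86705656, for Creld2 at chr15:88819520-88819538 and for Dnajc3 at chr14:118937827-118937845.
Hspa5: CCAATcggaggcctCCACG
Hsp90b1: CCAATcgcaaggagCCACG
Creld2: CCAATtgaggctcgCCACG
Dnajc3: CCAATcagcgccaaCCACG
Calr: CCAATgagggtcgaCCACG
Canx: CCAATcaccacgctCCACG
Pdia6: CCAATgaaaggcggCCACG
Syvn1: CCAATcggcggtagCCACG
Derl3: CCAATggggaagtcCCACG
Ero1b: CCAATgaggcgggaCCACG
The matches of Creld2, Calr, Derl3 and Ero1b lie on the strand opposite to the gene, and the others on the strand of the gene. A second match at Hsp90b1 reads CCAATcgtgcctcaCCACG and lies at chr10:86705533-86705551, also on the opposite strand. The 150 bases before the start of Hspa5, on the plus strand at chr2:34771940-34772089, show where its element stands.
Hspa5 promoter: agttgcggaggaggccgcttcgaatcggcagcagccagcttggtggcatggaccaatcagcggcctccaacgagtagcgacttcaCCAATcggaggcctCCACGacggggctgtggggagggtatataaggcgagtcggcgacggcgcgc
All 10 genes with the element had a lower mean at 10 ppb, with a median difference of -0.39. Of the 23 without a match, 19 were lower, with a median of -0.18. These 23 include all 6 targets of the PERK and ATF4 branch, whose median was 0.025, so matched and unmatched genes also differ in role. They may differ in level too, since 27 of all 38 list genes had a mean of at least 5. Of 10 other measured genes whose promoter holds the element, 5 were lower and 5 higher, with a median of -0.03. Only 1 of these others, Acacb, had a mean of at least 5, against 9 of the 10 on the list, so the 2 sets differ in level. These are descriptions of letters in a window and of the list, not a test of a factor.

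Hspa5 encodes BiP, the main chaperone of the ER lumen. Its control arrays read 11.13, 11.31, 11.30, 11.62 and 11.55, and its 10 ppb arrays 11.09, 10.36, 10.78, 10.96 and 11.57. Exposed replicates C, D and E lay below every control and A did so by a narrow margin, while F lay among the highest. The difference was -0.43 (SE 0.17, 95% confidence interval -0.78 to -0.08, unadjusted p = 0.017).

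Hsp90b1, the Hsp90 of the ER, read 9.97, 10.36, 10.44, 10.87 and 10.19 in controls and 10.08, 9.10, 9.72, 10.01 and 10.35 at 10 ppb. Exposed replicates C and D were below every control and the other 3 lay within the control range. The difference was -0.52 (SE 0.20, unadjusted p = 0.016), and without the arrays that lie apart it was -0.33, against -0.30 for Hspa5 and -0.73 for Creld2.

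Creld2, a secreted ER stress protein, had the widest difference of the list. Its controls read 7.37, 8.73, 8.45, 8.97 and 8.59, and its 10 ppb arrays 7.40, 6.68, 6.67, 7.12 and 9.25. Replicates C, D and E of the exposed group were low, but F was the highest of all 10 arrays and control B was low as well. The difference was -0.997 (SE 0.45, unadjusted p = 0.033).

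The BiP cochaperones were low on much the same arrays. Dnajb11 read 7.50, 7.81, 8.12, 8.73 and 8.24 in controls and 7.83, 6.80, 7.53, 7.42 and 8.11 at 10 ppb, a difference of -0.54 (SE 0.24). Dnajc3 read 8.04, 8.31, 8.15, 8.83 and 8.47 against 8.05, 7.41, 8.03, 7.82 and 8.15, a difference of -0.47 (SE 0.21). In both, exposed replicates C and E were below all controls, and A and F were not. Manf, a secreted ER factor that binds BiP, read 10.04, 10.40, 10.41, 10.60 and 10.59 against 10.01, 9.27, 9.60, 9.46 and 10.88, a difference of -0.56 (SE 0.25). Exposed F again exceeded every control.

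Of the 12 chaperones and cochaperones, 11 were lower and 6 had an unadjusted p under 0.05, with a median of -0.49. Among all genes with a mean of at least 5, 137 of 5373 (2.55%) were lower and 92 (1.71%) higher at that p. The others included Hyou1, a large ER chaperone (-0.54, SE 0.34), the lectin chaperones Calr (-0.31, SE 0.22) and Canx (-0.24, SE 0.15), and Sdf2l1, which works with Dnajb11 (-0.87, SE 0.50). Sil1, the nucleotide exchange factor of BiP, was the exception with 0.06 (SE 0.10), and it was -0.01 without control replicate C. All 6 disulfide isomerases and oxidases were lower, with a median of -0.24, among them Pdia6 (-0.34, SE 0.16), Pdia3 (-0.38, SE 0.20), P4hb (-0.19, SE 0.11) and the oxidase Ero1b (-0.15, SE 0.21, and 0.03 without exposed C). All 7 genes of ER-associated degradation were lower too, with a median of -0.18, such as the ubiquitin ligase Syvn1 (-0.45, SE 0.31) and Edem1, which delivers misfolded glycoproteins (-0.35, SE 0.18). The transcription factors Xbp1 (-0.32, SE 0.26) and Atf4 (-0.15, SE 0.14) had unadjusted p of 0.24 and 0.29. The sensor Atf6 was 0.32 higher (SE 0.36), but control C read 3.98 against 6.55 to 7.02 in the other controls, and without that array the difference was -0.24. The 6 targets of the PERK and ATF4 branch were split, 4 higher and 2 lower, with a median of 0.025. Of these, Asns, asparagine synthetase, differed by -0.49 (SE 0.61), with a single high array, exposed A at 6.81.

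**Figure D2:**
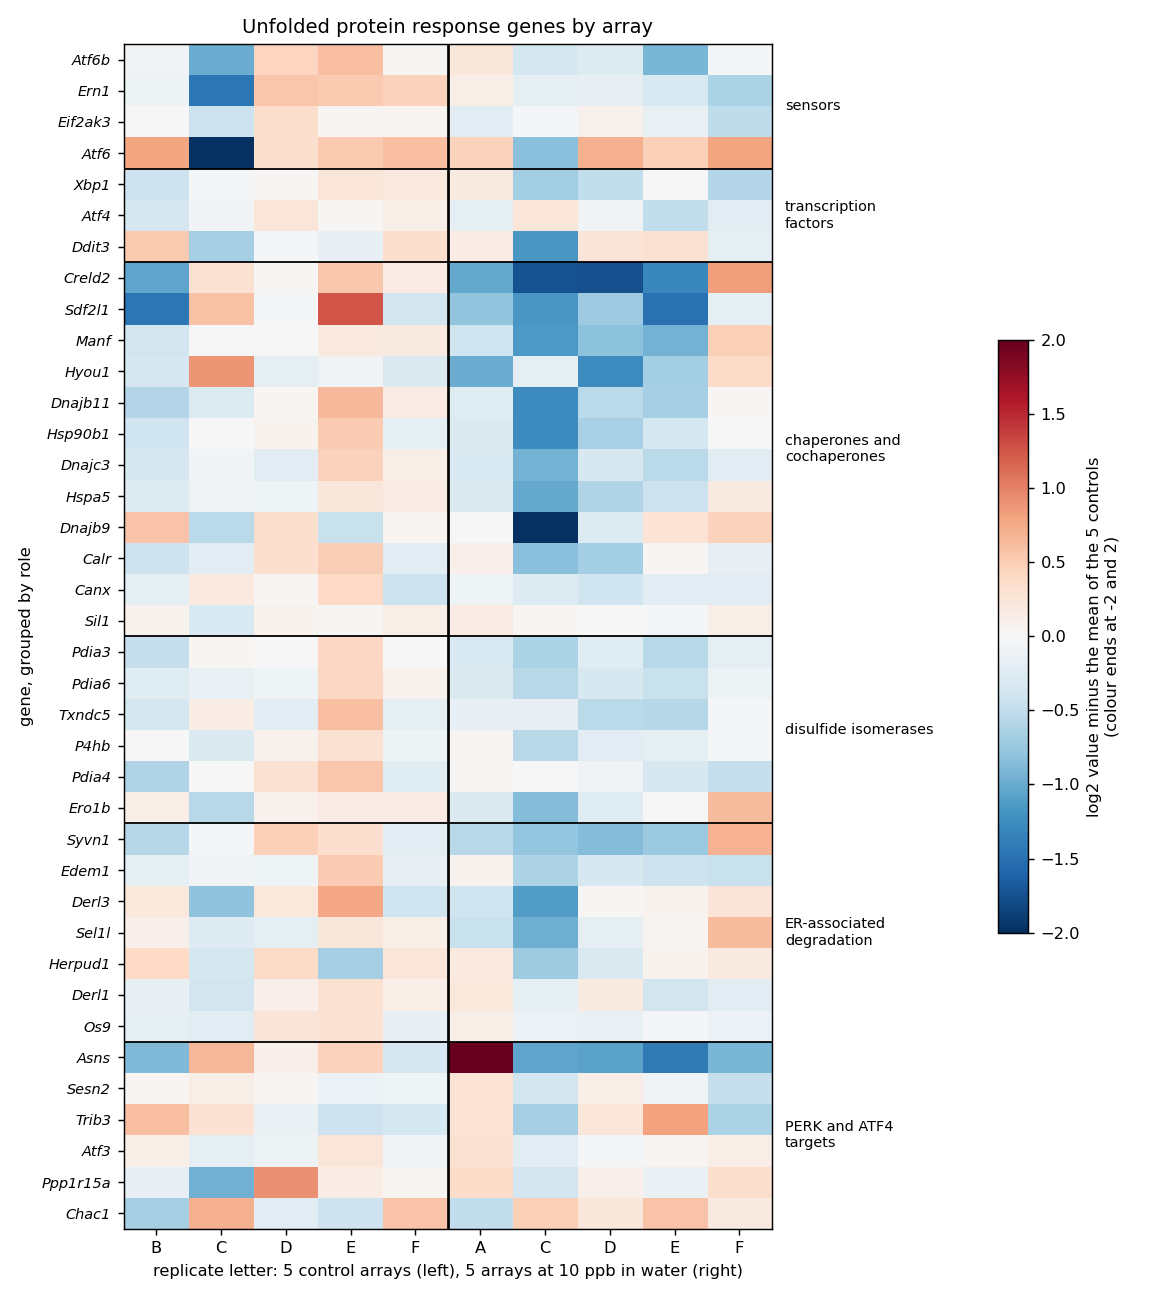
Log2 value of each unfolded protein response gene on each array, minus the mean of the 5 controls (colour), with control arrays on the left, 10 ppb arrays on the right and genes grouped by role. Exposed replicates C, D and E are blue for most chaperones, exposed F is not, and the PERK and ATF4 targets show no shared direction.

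Over the whole list, 32 of 38 measured genes were lower and 7 had an unadjusted p under 0.05, with a median of -0.24 against 0.005 for all genes. The mean level of the list on each array was 7.27, 7.26, 7.57, 7.73 and 7.47 in controls and 7.40, 6.81, 7.16, 7.17 and 7.45 at 10 ppb. Exposed C, D and E were thus below all controls, and A and F lay within their range. The mean level differed by -0.26, and by -0.22 without replicate C of both groups. The list median stayed below 0 under all 21 alternatives, from -0.32 to -0.15. This list had been chosen with its lower values in these arrays known, so its direction is not independent evidence.

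The secretory pathway, which moves new proteins into and out of the ER, had small differences of the same sign. Of its 24 genes 23 were lower, 4 at an unadjusted p under 0.05, with a median of -0.18. Like all lists here, this one was chosen with earlier results of these data known and read on the same arrays. Its direction is therefore not independent evidence either. Ssr3, a subunit of the translocon-associated complex, read 9.43, 9.72, 9.42, 9.87 and 9.57 in controls and 9.23, 9.32, 9.39, 9.27 and 9.58 at 10 ppb, a difference of -0.24 (SE 0.10). Exposed F alone lay inside the control range. The signal peptidase subunits Spcs3 (-0.30, SE 0.14) and Spcs2 (-0.27, SE 0.13) and the translocon partner Sec63 (-0.22, SE 0.10) lay alongside. Sec22b, a SNARE of vesicles between ER and Golgi, was outside the list and read 7.92, 7.83, 7.88, 8.09 and 8.14 against 7.52, 7.32, 7.53, 7.54 and 8.07. All but exposed F were below every control, and the difference was -0.38 (SE 0.13).

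The ribosome biogenesis list had 24 of 30 genes lower, 6 of them at an unadjusted p under 0.05, with a median of -0.20 that was -0.07 without exposed replicate C. Nop56, a core protein of the box C/D ribonucleoprotein that methylates ribosomal RNA, read 4.87, 5.23, 5.91, 5.42 and 5.55 in controls and 5.14, 4.35, 5.03, 4.72 and 4.76 at 10 ppb. Control B lay among the exposed arrays, and the other controls were above all of them. The difference was -0.59 (SE 0.15, unadjusted p = 0.00046).

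Tsr1, needed for the maturation of the small ribosomal subunit, read 5.40, 6.25, 6.27, 6.12 and 6.33 against 5.53, 4.10, 5.20, 5.17 and 5.76. The same control B was again low, and exposed C was the lowest array. The difference was -0.92 (SE 0.25, unadjusted p = 0.00075), and it was -0.62 without the arrays that lie apart. Further factors were Nop58, the partner of Nop56 (-0.72, SE 0.22), the ribosomal RNA methyltransferase Nop2 (-0.52, SE 0.18), Nolc1, a nucleolar phosphoprotein (-0.71, SE 0.26), and Fbl, the methylase fibrillarin (-0.27, SE 0.13). Nop58 was dim, with a mean under 4 over all 59 arrays. Fbl differed by -0.10 without the arrays that lie apart. The mean level of the list was 5.12 on exposed C, 5.54 to 5.66 on the other exposed arrays and 5.37 to 5.96 in the controls, so the groups overlapped.

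Other lower genes by the same rule were Clp1, an RNA kinase (-0.62, SE 0.19), the cleavage factor Cpsf7 (-0.41, SE 0.14), the nucleolar protein Wdr55 (-0.48, SE 0.16), Parp14, an ADP-ribosyltransferase (-0.62, SE 0.21), and Prelid3b (-0.48, SE 0.14). In all 5, exposed C was the lowest array, and without the arrays that lie apart Parp14 differed by -0.38 and Cpsf7 by -0.27. Med29, a Mediator subunit, read 5.19, 5.58, 5.43, 5.23 and 5.25 in controls and 5.04, 5.03, 4.96, 4.42 and 4.98 at 10 ppb, a difference of -0.45 (SE 0.14). The protein kinase Mapkapk5 read 5.92, 6.07, 6.08, 6.18 and 6.04 against 5.68, 5.26, 5.90, 5.57 and 5.89, a difference of -0.40 (SE 0.13). In both, every exposed array was below every control. Such a separation was seen for 11 lower genes (0.205%) and 7 higher genes (0.13%) of the 5373 with a mean of at least 5.

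Of 11 cytosolic chaperones and their regulators 9 were lower, 2 of them at an unadjusted p under 0.05, and 2 were higher. Hsph1, the Hsp110 chaperone, read 6.25, 7.50, 7.35, 7.71 and 7.70 in controls and 6.56, 4.13, 5.82, 6.23 and 7.30 at 10 ppb. Control B lay at the level of the exposed arrays, and exposed C was far below all others. The difference was -1.29 (SE 0.43, unadjusted p = 0.0051), and -0.77 without the arrays that lie apart. A match to the heat shock element, searched as GAANNTTCNNGAA on both strands, lies at chr5:149636288-149636300, just after an annotated start of Hsph1, and is shown because Hsf1, the heat shock factor, binds such repeats.
Hsph1: GAActTTCcaGAA
The element was found in 198 of 32851 promoters (0.603%), and of the 88 measured genes that hold it 45 were lower. On the joint list of heat shock and metal genes it was also found at Hspd1 and Hspe1, the mitochondrial chaperonins. These neighbours share the same matches, at chr1:55088059-55088071 and chr1:55088064-55088076. The 3 genes had a median of -0.14 against -0.15 for the 10 without it, which include the metal genes Mt1, Mt2, Mtf1 and Slc30a1. Hspa8, the constitutive Hsc70, read 10.86, 10.90, 10.93, 10.89 and 11.00 against 10.67, 10.31, 10.54, 10.75 and 10.81. All 5 exposed arrays were below all controls, with a difference of -0.30 (SE 0.15). Hsp90aa1, the inducible cytosolic Hsp90, differed by -0.52 (SE 0.27).

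Metallothioneins, which bind metals and are among the most inducible liver genes, varied so widely that no direction could be read. Mt1 read 5.34, 12.49, 5.03, 8.51 and 9.14 in controls and 9.13, 6.47, 6.33, 5.36 and 4.61 at 10 ppb. Mt2 read 3.72, 11.77, 3.48, 7.01 and 8.56 against 7.60, 4.29, 4.62, 4.35 and 3.75. Both groups held low and high arrays in the same replicates for both genes, and the differences were -1.72 (SE 1.05) and -1.99 (SE 1.17). Without the arrays that lie apart, Mt1 differed by -0.65 and Mt2 by -0.61. The heme oxygenase gene Hmox1 differed by -0.43 (SE 0.30). In the heat shock and metal list 13 of 15 genes were lower, 2 of them at an unadjusted p under 0.05, with a median of -0.18.

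**Figure D3:**
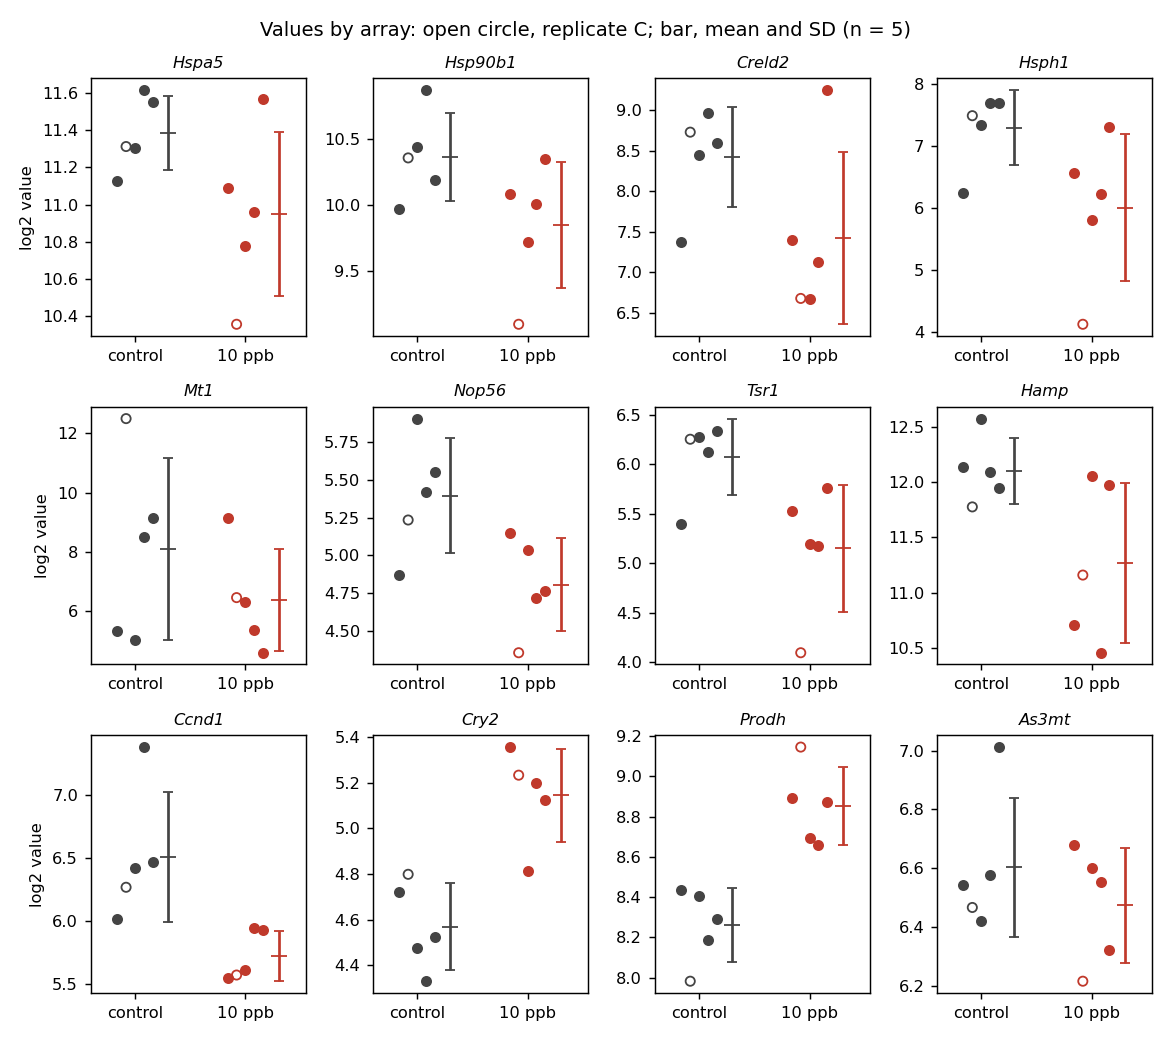
Log2 values of 12 genes by array, with controls on the left and the 10 ppb group on the right of each panel, open circles for replicate C, and a bar for the mean and SD (n = 5); each panel has its own axis. Ccnd1, Cry2 and Prodh are separated between the groups, while the others overlap in at least 1 array.

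The genes that take up, reduce, methylate and export arsenic had no shared direction. Of the uptake genes 5 of 6 were higher, of reduction and methylation 4 of 7 lower, and of efflux 5 of 6 lower, with medians of 0.17, -0.12 and -0.05. As3mt, the arsenic methyltransferase, read 6.54, 6.47, 6.42, 6.58 and 7.01 in controls and 6.68, 6.21, 6.60, 6.55 and 6.32 at 10 ppb. The ranges overlapped, and the difference was -0.13 (SE 0.28, 95% confidence interval -0.70 to 0.44). The aquaglyceroporin Aqp9 (-0.02, SE 0.13), the reductase Gsto1 (0.00, SE 0.16) and the canalicular pump Abcc2 (-0.05, SE 0.12) were within 0.1 of 0. The signs of these 3 differences turned under at least 1 alternative. Pnp, a purine enzyme that reduces arsenate, differed by -0.36 (SE 0.19), and the glucose transporter Slc2a2, which also carries arsenite, by 0.60 (SE 0.42). Pnp differed by -0.22 without the arrays that lie apart. Thioredoxin reductase Txnrd1, a selenoenzyme, read 7.94, 7.86, 8.15, 8.58 and 8.19 against 8.06, 7.32, 8.09, 7.70 and 7.97. It differed by -0.32 (SE 0.15) and was the only gene of the list with an unadjusted p under 0.05. Its substrate Txn1 differed by -0.12 (SE 0.07). Among suppliers and users of the methyl donor, Mat1a, which makes it, differed by -0.16 (SE 0.18), Gnmt, a methyltransferase that buffers it, by 0.18 (SE 0.11), and Ahcy, which clears its product, by 0.10 (SE 0.08). Of the 22 measured genes of arsenic handling 11 were higher and 11 lower, with a median of -0.01, and the sign of that median turned in 7 of 21 alternatives.

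Glutathione and Nrf2 target genes, the electrophile defence, had 18 of 28 members higher and a median of 0.10, with none at an unadjusted p under 0.05. The glutathione transferase Gsta2 read 5.42, 2.65, 4.58, 3.47 and 4.10 in controls and 3.63, 4.44, 4.90, 5.25 and 6.41 at 10 ppb, a difference of 0.88 (SE 0.52). The groups overlapped. Without the arrays that lie apart the median of this list was -0.0025. In the p53 list, the p53 antagonist Mdm2 was 0.18 higher (SE 0.09), and Gadd45b, a stress gene, was lower on every exposed array, with a difference of -0.32 (SE 0.18). Gadd45b was low on the scale, with control C at 3.80 and the other controls at 3.10 to 3.17. Without the arrays that lie apart it differed by -0.20. DNA repair genes were split, 7 higher and 7 lower.

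On the higher side, the 12 genes with the smallest p had differences of at most 0.77, and apart from the clock gene Tef they belong to none of the lists. Dnajc8, a J protein tied to splicing, read 7.96, 7.53, 7.88, 7.74 and 7.94 in controls and 8.03, 8.30, 8.07, 8.24 and 7.99 at 10 ppb, a difference of 0.32 (SE 0.08, unadjusted p = 0.000645). Nab2, a corepressor of Egr transcription factors, read 5.08, 5.21, 5.25, 4.20 and 4.60 against 5.69, 5.33, 5.76, 5.68 and 5.71, a difference of 0.77 (SE 0.22). Birc3, an inhibitor of apoptosis, read 5.76, 5.58, 5.71, 5.64 and 5.73 against 5.97, 6.13, 6.10, 6.33 and 6.06, a difference of 0.43 (SE 0.13). In these 3 genes all exposed arrays were above all controls, as they were for Lims2, a focal adhesion gene (0.47, SE 0.17).

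The rest overlapped by at least 1 array. They were the kinase Pim1 (0.77, SE 0.27), the deacetylase Hdac5 (0.60, SE 0.21), the potassium chloride cotransporter Slc12a7 (0.61, SE 0.22), the DNA polymerase subunit Pold4 (0.57, SE 0.21), Cisd1, an iron sulfur protein of mitochondria (0.36, SE 0.13), Rab40c (0.39, SE 0.12) and Szrd1 (0.39, SE 0.11). Control C was the lowest array in Hdac5, Slc12a7, Pold4, Cisd1, Rab40c and Szrd1. Without the arrays that lie apart, Slc12a7 differed by 0.26, Pold4 by 0.20 and Rab40c by 0.24. A second probe set had the opposite sign for Dnajc8, Birc3, Rab40c, Pim1, Med29, Sec22b, Parp14 and Cpsf7. The 4 other genes with the smallest p over all levels, 4930504C09Rik, Rasl11a, Hmgcll1 and Mfsd13b, had means between 1.84 and 2.43 in both groups, near the bottom of the scale, and are not described further.

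All 10 clock genes with a repressor role had a higher mean at 10 ppb, 1 of them at an unadjusted p under 0.05, with a median of 0.20. Of the 4 output factors 2 were higher and 2 lower, and of the 4 activators 3 were lower. Cry2, a repressor of the circadian loop, read 4.72, 4.80, 4.48, 4.33 and 4.52 in controls and 5.36, 5.23, 4.81, 5.20 and 5.13 at 10 ppb. Every exposed array was above every control, with a difference of 0.57 (SE 0.18, unadjusted p = 0.0025). Tef, an output factor of the clock, read 6.50, 6.25, 6.10, 5.48 and 6.49 against 6.83, 6.33, 6.72, 6.83 and 7.22. Exposed C lay inside the control range and the other 4 were above it, a difference of 0.62 (SE 0.19). Dbp, a related output factor with a large daily swing, read 6.92, 6.59, 5.83, 3.10 and 6.83 against 7.67, 3.14, 7.49, 7.86 and 7.61. Control E and exposed C were far below the other arrays, and the difference was 0.90 (SE 0.71). It was 1.99 without the arrays that lie apart and ranged from 0.21 to 1.99 over the alternatives. The activator Clock differed by -0.51 (SE 0.26), with exposed C at 3.49, and the repressor of outputs Nfil3 by -0.44 (SE 0.23). Over the whole list 13 of 18 clock genes were higher. The time of day of liver collection is not stated in the labels, and its part in these values was not tested.

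Of 23 lipogenesis genes 20 were higher, none at an unadjusted p under 0.05, with a median of 0.20. The regulator Srebf1 differed by 0.57 (SE 0.42), the fatty acid synthase Fasn by 0.54 (SE 0.39), the citrate lyase Acly by 0.48 (SE 0.35), and Gpam, which starts triglyceride synthesis, by 0.48 (SE 0.27). Control C had the lowest mean level of this list, 8.62 against 9.20 to 9.59 on the other 9 arrays, and without the arrays that lie apart the median was 0.06, with Fasn at 0.20, Acly at 0.18 and Gpam at 0.29. Hmgcs1 of cholesterol synthesis (0.40, SE 0.17), the bile acid importer Slc10a1 (0.36, SE 0.16) and the alanine transaminase Gpt2 (0.34, SE 0.15) were higher at an unadjusted p under 0.05. Without the arrays that lie apart they differed by 0.235, 0.19 and 0.26, with unadjusted p of 0.16, 0.24 and 0.082. Prodh, the first enzyme of proline breakdown, read 8.44, 7.98, 8.40, 8.19 and 8.29 in controls and 8.89, 9.14, 8.69, 8.66 and 8.87 at 10 ppb. The groups were separate, with a difference of 0.59 (SE 0.24). Without the arrays that lie apart Prodh differed by 0.45, with an unadjusted p of 0.081 from limma.

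Fasting and glucocorticoid genes were split in direction. Igfbp1, a secreted binder of insulin-like growth factors that rises in fasting, read 8.82, 9.75, 8.96, 9.28 and 10.06 against 7.68, 8.32, 7.66, 9.03 and 7.27. Exposed E alone reached the controls, and the difference was -1.38 (SE 0.63, unadjusted p = 0.036). Pck1, the key enzyme of gluconeogenesis, differed by -0.51 (SE 0.22), but by -0.20 without the arrays that lie apart. The glucocorticoid target Fkbp5 differed by -0.65 (SE 0.42) and Dusp1, another target, by 0.79 (SE 0.41), or 0.42 without those arrays. The glucocorticoid list had 8 genes higher and 12 lower, with a median of -0.09 that turned to 0.01 without the same arrays. Its 17 targets alone had 5 higher and 12 lower, with a median of -0.23, and its 3 genes of receptor and hormone availability were all higher. Gluconeogenesis had 6 higher and 9 lower, with a median of -0.02. Fatty acid oxidation was split, 12 higher and 13 lower, with the carnitine transporter Slc22a5 at -0.53 (SE 0.25), or -0.33 without those arrays, and Angptl4, a lipase inhibitor, at -0.85 (SE 0.49). The 22 cytochrome P450 genes and the 21 of the respiratory chain had medians of -0.0021 and 0.0436.

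Ccnd1, cyclin D1, which drives the G1 phase, read 6.02, 6.27, 6.42, 7.38 and 6.46 in controls and 5.55, 5.57, 5.61, 5.94 and 5.93 at 10 ppb. All exposed arrays were below all controls, and the difference was -0.79 (SE 0.30, unadjusted p = 0.013). Control E was high for the whole cell cycle list, with a mean level of 4.22 against 3.45 to 3.67 on the other 9 arrays. Socs2, a growth hormone target, differed by -1.61 (SE 0.82), and by -2.64 without the arrays that lie apart, while its list had 10 genes higher and 8 lower.

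Hamp, the iron hormone hepcidin, read 12.13, 11.78, 12.57, 12.09 and 11.95 in controls and 10.71, 11.16, 12.05, 10.46 and 11.97 at 10 ppb. Exposed A, C and E were below all controls, D and F were within them, and the difference was -0.83 (SE 0.28, unadjusted p = 0.0059). The interleukin 1 receptor Il1r1 differed by -0.92 (SE 0.38). Of the 29 acute phase genes 25 were lower, with a median of -0.25, among them fibrinogen Fga (-0.20, SE 0.11) and Crp (-0.31, SE 0.17; -0.14 without the arrays that lie apart). Their level was uneven in the controls, where Saa3 ranged from 5.18 to 11.66, and the mean level of the list ranged from 8.34 to 10.36 in controls and from 8.70 to 9.74 at 10 ppb. The list median was -0.08 without the arrays that lie apart.

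Markers of other cell types showed no shared direction beyond small lists. All 6 MHC class II genes were higher, with a median of 0.23, and Cd74, the class II invariant chain, differed by 0.58 (SE 0.33). Control C read 4.53 for Cd74 against 6.46 to 6.98 in the other controls, and the difference was 0.08 without the arrays that lie apart. Kupffer cell markers had 9 of 13 genes lower and a mean level of 6.32 to 7.37 in controls and 6.44 to 7.29 at 10 ppb. Among neutrophil markers, Ngp was below all controls on every exposed array (-0.44, SE 0.20), but its values of 2.05 to 2.99 are near the bottom of the scale, and S100a9 differed by -1.001 (SE 0.59). The immunoglobulin gene Ighm differed by 0.98 (SE 0.56) and the bile duct marker Epcam by -0.28 (SE 0.12). Epcam was dim, with a mean under 4 over all 59 arrays. Ighm differed by 0.37 and S100a9 by -0.63 without the arrays that lie apart. T and NK cell, endothelial, pancreas and skeletal muscle lists had medians between -0.0003 and 0.0353. The mean level of the T and NK cell list was 2.86 in both groups, near the bottom of the scale. That of the skeletal muscle list was 2.45 in controls and 2.47 at 10 ppb, also near the bottom.

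**Figure D4:**
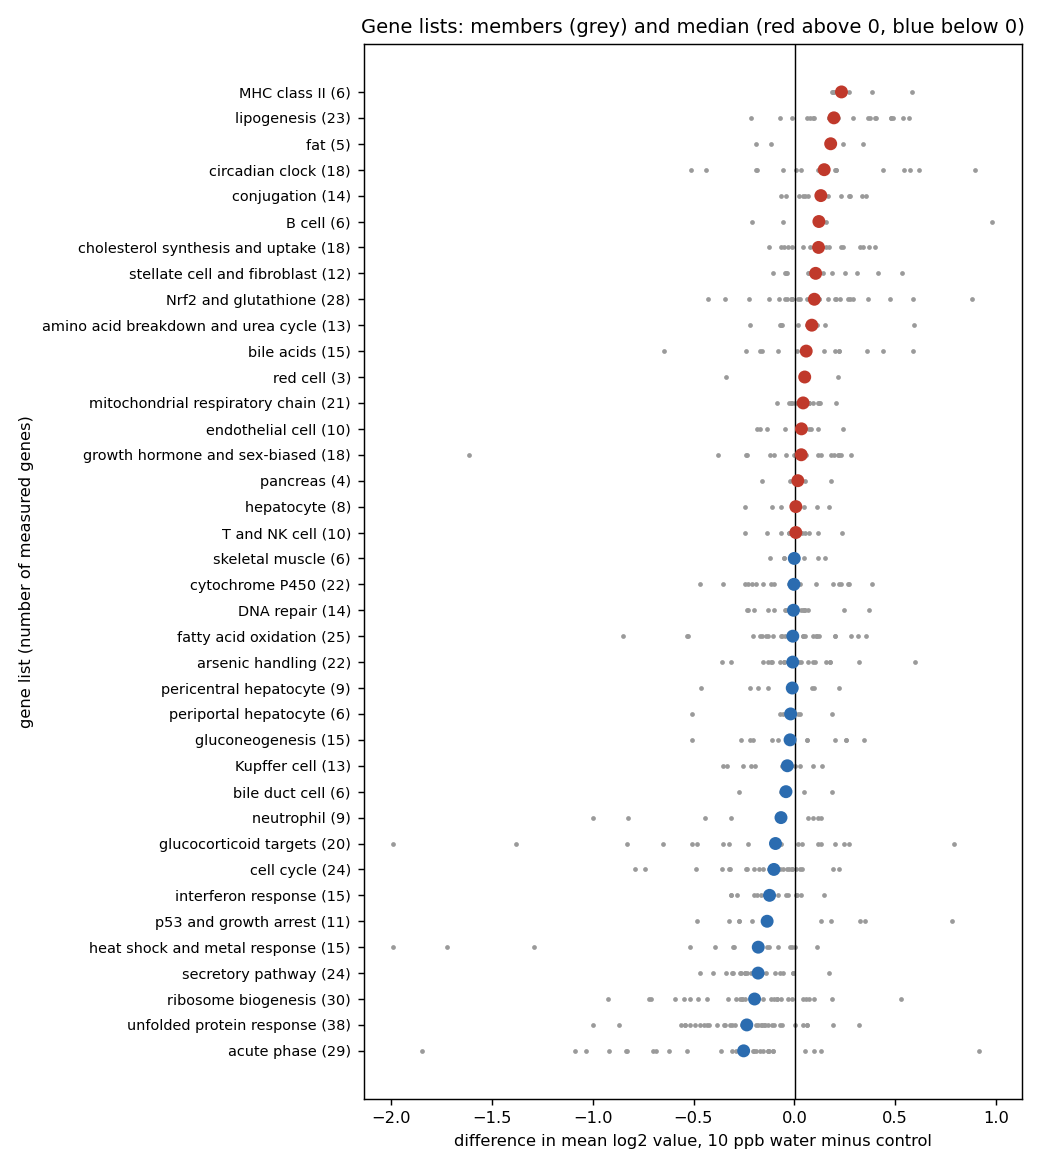
Differences of the measured members (grey) and their median (large points) for each of the 38 gene lists, in log2 units, with the number of measured genes in brackets and a line at the median of all genes, 0.005. The acute phase, unfolded protein response, ribosome biogenesis, secretory pathway and heat shock medians are the lowest, at -0.25 to -0.18, and MHC class II and lipogenesis the highest, at 0.23 and 0.20.

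Dose, route and diet were addressed by direct comparisons with the 10 ppb group. They use the same 5 exposed arrays as above, and the diet comparison the same controls as well, so they are not independent of the values given so far. Against the 4 arrays of mice on AIN-76A with 100 ppb in the water, limma called 321 of 45037 probe sets (0.713%), 136 higher and 185 lower at 100 ppb. In the unfolded protein response list 2 genes were called, both higher at 100 ppb. They were Dnajb11 with 1.11 (SE 0.25, adjusted p = 0.030) and Creld2 with 1.96 (SE 0.48, adjusted p = 0.040), beside 81 of 18193 genes (0.445%) called higher and 118 (0.649%) called lower in all. Hspa5 (0.66, SE 0.18) and Hsp90b1 (0.77, SE 0.22) did not pass, each with an adjusted p of 0.087, and the list median was 0.49. The metallothioneins Mt1 (4.91, SE 1.11) and Mt2 (5.52, SE 1.24) and Hmox1 (1.58, SE 0.32) were called higher, with adjusted p of 0.028, 0.026 and 0.013. Pnp was called higher by 1.01, Slc2a2 lower by 2.10 on the log2 scale and Gnmt lower by 0.54. Of the genes named above for their difference from control, Cry2 (-1.01, adjusted p = 0.0077), Prodh (-1.18, adjusted p = 0.021), Dnajc8 (-0.36, adjusted p = 0.044), Clp1 (0.87, adjusted p = 0.032) and Nop2 (0.80, adjusted p = 0.040) were called. In lipogenesis 7 of 23 genes were called lower at 100 ppb, such as Acly (-1.99, SE 0.37) and Fasn (-1.80, SE 0.42).

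These calls between doses rested on few arrays and on the spread borrowed from other groups. The count was 10 without replicate B of the 100 ppb group, 118 without its C and 1278 without its A, and it was 205, 121, 158 and 195 without replicate A, D, E or F of the 10 ppb group. It was 1109 without the arrays that lie apart, and with only the groups compared in the fit 0 probe sets were called.

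Against mice given 10 ppb in food on the same diet, 0 of 45037 probe sets passed (2623 at an unadjusted p under 0.05, 5.82%). The food arrays were uneven in markers of other tissues. Their mean level of the skeletal muscle list was 3.96 (SD 3.34) against 2.47 (SD 0.15) with 10 ppb in water. For the fat list the SD was 1.17 against 0.12. The cause was not tested, and the food arrays also enter the spread behind every SE. The median of the unfolded protein response list was 0.18 in the direction of higher values with food. Tsr1 was 0.72 higher with food and Creld2 0.41, neither past the threshold. The test of whether the effect of 10 ppb in water differed between AIN-76A and LRD-5001, a standard chow, called 0 probe sets as well (1866 at an unadjusted p under 0.05, 4.14%). On LRD-5001 the difference between 10 ppb and control was 0.17 for Hspa5, 0.11 for Hsp90b1 and 0.63 for Creld2. The difference on AIN-76A minus that on LRD-5001 was -0.60 (SE 0.24) for Hspa5, -1.63 (SE 0.64) for Creld2, -1.43 (SE 0.35) for Tsr1, -2.70 (SE 0.90) for Igfbp1 and 1.175 (SE 0.27) for Tef, none past the threshold. A p that misses the threshold does not show that the diets or routes act alike.

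Set beside each other against the control of their own diet, the ER chaperones were lower at 10 ppb in water on AIN-76A and not at 100 ppb, where 11 of the 12 had a mean above control and Canx differed by -0.04. Hspa5 differed by -0.43 with 10 ppb in water, 0.23 with 100 ppb in water and -0.18 with 10 ppb in food on AIN-76A, and by 0.17 with 10 ppb in water on LRD-5001. The list medians in the same order were -0.24, 0.24, -0.06 and 0.11. The 3 AIN-76A values share the same 5 control arrays and are therefore not independent of each other.

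**Figure D5:**
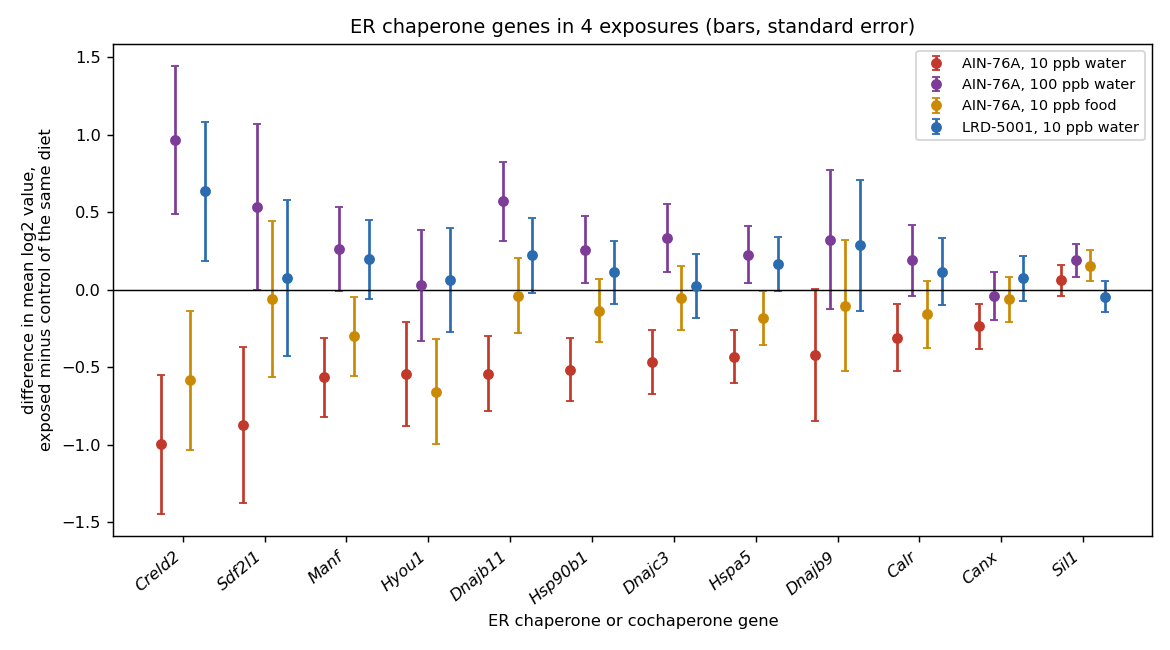
Difference from the control of the same diet for 12 ER chaperone and cochaperone genes in 4 exposures, in log2 units, with bars of 1 standard error. The AIN-76A 10 ppb water points are below 0 for 11 of 12 genes, Sil1 being the exception, and the 3 AIN-76A exposures share their controls.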

How the data were processed

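The authors deposited 1 table of log2 values per probe set, made with RMA (background correction, normalization and summarisation) per the submitters' processing notes. No source used here names the software or the settings, and RMA can understate differences of dim genes. Of 45101 probe sets, 64 controls were left out. Probe sets with 1 symbol in the platform annotation (34945; 932 had several, and 10092 of those tested had no single symbol) were named, of which 34741 were found in RefSeq (GRCm38.p6). A gene is its probe set with the highest mean over 59 arrays. Group means of the 39 arrays of 8 groups entered a linear model (lmFit and eBayes of limma 3.58.1, R 4.3.3, 31 residual degrees of freedom), with Benjamini-Hochberg adjustment over 45037 probe sets and a threshold of 0.05. The fit was tested on simulated data.

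Genes named are the 12 smallest p among those higher and among those lower with a mean of at least 5, the 5 smallest p at any level, and members of 38 lists (585 of 636 entries measured, 1 of them, Ero1b, entered by its current RefSeq symbol), up to 4 by the smallest p or all of the unfolded protein response and arsenic lists. Dbp, Fasn, Fbl, Fkbp5, Mt1, Nolc1 and Saa3 were named after their values were seen. Members, lists and the arrays that lie apart were chosen with earlier results of these data known. The lists were described by counts and medians, with no set test. The labels share replicate letters between the groups, but deviations of the same letter correlated at 0.399, 0.0867, -0.0379 and -0.0801, so letters were not used as pairs.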

Additional observations from a re-analysis of the deposited data

Results flagged for a closer look

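Among 290 groups of 5 values, 35 (12.1%) held 1 array whose gap to the nearest other exceeded 0.71 of the whole range. For independent, normally distributed values chance gives about 1 in 20. The genes here were partly chosen by their p or their values, and genes and lists share the same arrays. That rate therefore cannot be set against the 12.1%. Of the 35, 20 were in controls and 15 at 10 ppb. Replicate C accounted for 13 in controls and 7 at 10 ppb, and the cause was not tested.

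Control C was low for Szrd1 (5.903), Slc12a7 (4.217), Pold4 (3.964), Sil1 (7.055), Atf6 (3.981), Ero1b (8.189) and Cd74 (4.527), and high for the ER chaperone Hyou1 (9.047) and the stress gene Gadd45b (3.795). Its mean level was low for the lists of DNA repair (4.853), growth hormone (6.505) and MHC class II (4.056), and high for T and NK cells (3.068). Control B was low for Tsr1 (5.402) and Hsph1 (6.249). Control E was high for Edem1 (9.011), Spcs3 (8.741) and the cell cycle list (4.219) and low for Dbp (3.099), and control F was high for As3mt (7.012).

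Exposed C was low for Nab2 (5.331), Atf6 (5.385), Clock (3.491), Dbp (3.136), the ribosome biogenesis list (5.119) and the clock list (4.326), and high for Slc10a1 (12.37). Exposed A was high for Asns (6.813), Txn1 (10.42) and Mt2 (7.602). Exposed F was high for Creld2 (9.25) and Syvn1 (7.883), both of the ER, and low for Gadd45b (2.648) and bile duct markers (2.569). Exposed E was low for Med29 (4.424).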

How the results depend on the processing

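The count of 0 probe sets called between 10 ppb and control held under all 21 alternatives. That of the diet comparison held under every alternative run for it, a larger set that also left out each LRD-5001 array of that comparison. The 2178 of 45037 probe sets at an unadjusted p under 0.05 became 843 of 18193 with 1 probe set per gene. The count was 460 with a mean of at least 4, a setting that tests fewer probe sets, here and below. It was 1196 with only the groups compared, and 1487 to 2781 when 1 array was left out. The 321 probe sets called between 100 and 10 ppb became 108 with all 59 arrays in 1 fit, 764 with a block for the arrays apart, 1109 without these, 493 with a mean of at least 4, 0 with only the groups compared and 133 with the replicate block, and 10 to 1278 when 1 array was left out. Leaving arrays out of the comparisons between exposures and diets was chosen after seeing the data. The 0 between food and water became 2 with all 59 arrays, 5 with a block for the arrays apart, 1 without these, and 0 to 1 when 1 array was left out. The replicate block left 0 calls and 2146 at an unadjusted p under 0.05 between 10 ppb and control. Signs turned for Abcc2 (-0.134 to 0.0135 when 1 array was left out), Aqp9 (-0.1032 to 0.0633, and 0.0325 without the arrays apart), Ero1b (-0.3437 to 0.0303), Atf6 (-0.241, without control C, to 0.6085), Gsto1 (-0.0833 to 0.0912, and -0.009 with arrays shifted to 1 median), Mat1a (0.0598 without the arrays apart) and Sil1 (-0.0139, without control C, to 0.09535, and -0.0095 without the arrays apart), and the cause was not tested. No alternative brought a named gene past the adjusted threshold.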
